A study of Homo sapiens with 9 samples.

Results

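The distribution of RNA between nucleus and cytoplasm was measured in cells that had received only a control siRNA. Of the 9 samples analysed, the 4 labelled as control were taken: the nuclear fraction in 3 replicates and the cytoplasmic fraction in 1 sample, replicate 2. No other cytoplasmic control sample was analysed. The labels name the cells HEK293, a human embryonic kidney cell line, and the methods of the study describe 293 T cells transfected repeatedly with siRNA. The remaining 5 samples came from cells treated with siRNAs against WTAP and KIAA1429 (gene symbol VIRMA), subunits of the enzyme complex that writes the m6A mark on RNA, and comprised 3 nuclear and 2 cytoplasmic samples. They share no sample with the control cells and are given here only beside them. Fractions were separated by the authors, checked by western blot for histone H3, nuclear proteins and tubulin, and sequenced with a kit that selects polyadenylated RNA.

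Eukaryotic messenger RNA is made, spliced and polyadenylated in the nucleus and then exported through nuclear pores, a step served by the TREX complex and the NXF1 export receptor. Some RNAs work in the nucleus and are kept there, among them XIST, which coats the inactive X chromosome, and NEAT1 and MALAT1, which reside in nuclear bodies. Messages with introns left in the polyadenylated product are also commonly held in the nucleus, and messages for secreted and membrane proteins are translated on the endoplasmic reticulum, whose membrane is continuous with the nuclear envelope.

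The 4 control libraries held between 12709984 estimated counts (nuclear replicate 3) and 19036141 (cytoplasm), and over all 9 libraries, the smallest of which held 11627403, 16181 genes had enough counts to be tested. The cytoplasm has 1 sample, so its spread could not be measured and was assumed to equal that of the other groups, and nothing in the labels says that the nuclear replicates came from separate cultures. P-values therefore measure the spread among these samples only. All levels are given in CPM (each count relative to the library total, after TMM scaling), so they are shares of the RNA within a fraction: how much RNA each fraction held per cell is not known, and a higher share in the nucleus cannot be told apart from a lower share of other RNAs there. Of 10 marker genes of HEK293 cells, 8 were found and lay between 6.53 and 1170 CPM in the 4 control samples, whereas the 8 of 9 markers of other cell types that were found lay between 0 and 5.03 CPM. WTAP, the target of one siRNA, stood at 23.0 to 27.5 CPM in the control nuclei against 12.2 to 15.5 CPM in the RNAi nuclei, and VIRMA at 13.1 to 19.8 CPM against 5.55 to 9.16 CPM.

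The cytoplasmic library stood apart from the rest in base composition. When protein-coding genes were ordered by GC content, the fifth with the least GC exceeded the fifth with the most by 0.672 (median log2 CPM relative to the mean of all 9 samples) in the control cytoplasm, against -0.044 to 0.162 in the 3 control nuclei and -0.387 and -0.621 in the RNAi cytoplasm. As the control cytoplasm is 1 library, this difference cannot be told apart from a difference between the fractions. Its part in the results below was not tested, but counts with a correction for GC content are given beside some of them. A single transcript that could not be matched to a gene took 6.06% of the counts in the cytoplasm and 1.83% to 2.26% in the nuclei, and it was left out.

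In the control cells 3049 genes (18.8% of those tested) were higher in the nucleus and 1341 genes (8.29%) were higher in the cytoplasm, at a change of at least 2-fold and an edgeR false discovery rate (FDR) under 0.05. Large differences lay almost wholly on the nuclear side: 1494 genes (9.23%) were at least 4-fold higher in the nucleus and 49 (0.303%) at least 4-fold higher in the cytoplasm. Of the 1494 genes, 1038 had fewer than 10 counts in the cytoplasm. Among the 13629 genes with at least 10 counts in each of the 4 control samples, 1845 (13.5%) were higher in the nucleus, 456 of them by 4-fold, and 1295 (9.5%) were higher in the cytoplasm, 31 of them by 4-fold. For every called gene the cytoplasmic value lay outside the range of the 3 nuclear values, as it did for 81.8% of all genes tested. With the GC correction the counts were 2735 and 1337. These totals do not show how many of the same genes were called, and within the lists below some calls were lost.

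**Figure D1:**
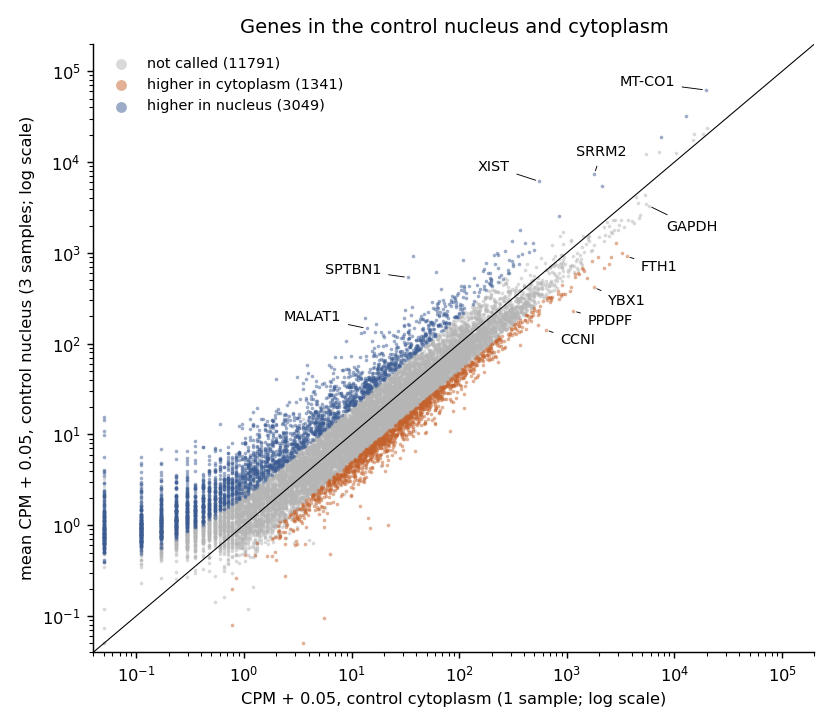
Each point is a gene, placed by its level in the control cytoplasm (1 sample) and its mean level in the control nucleus (3 samples), both in CPM plus 0.05 on log axes; the line marks equal levels. The 3049 genes called higher in the nucleus spread farther from the line than the 1341 called higher in the cytoplasm, and XIST and SPTBN1 lie far above it.

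By gene type, long non-coding RNAs were higher in the nucleus far more often than messages. Of 2128 lncRNA genes tested, 904 (42.5%) were higher in the nucleus and 27 (1.3%) in the cytoplasm, with a median log2 difference of 1.16 on the nuclear side. Of 13474 protein-coding genes, 1908 (14.2%) were higher in the nucleus and 1299 (9.6%) in the cytoplasm, with a median of -0.10, close to the median of 0.04 over all genes tested. With at least 10 counts in each control sample the medians were 0.57 for 1149 lncRNA genes and -0.15 for 12242 protein-coding genes, and 353 and 1426 of them were higher in the nucleus. In the RNAi cells the same genes had medians of 1.35 for lncRNA and -0.11 for protein-coding genes.

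Within the lncRNA genes, the 479 named as antisense to another gene had a median of 0.74. Of them, 159 (33.2%, against 42.5% of all lncRNA genes) were higher in the nucleus and 10 (2.1%, against 1.3%) in the cytoplasm. Reads from such genes and their partners cannot be separated if the counting did not use strand, which the sources used here do not state. The 226 genes with LINC symbols had a median of 1.14, with 95 (42.0%) higher in the nucleus and 5 (2.2%) in the cytoplasm, near the shares of all lncRNA genes. The 24 microRNA host genes had a median of 1.53, with 11 (45.8%, near the share of all lncRNA genes) higher in the nucleus and none called in the cytoplasm. Of the 24, 11 had fewer than 10 counts in the control cytoplasm. Among the 12 with at least 10 counts in each control sample, 3 were higher in the nucleus and the median was 0.86. Processed pseudogenes, copies of messages that share sequence with their parent genes, had a median of 1.54 over 183 genes. Of them, 76 (41.5%, against 18.8% of all genes) were higher in the nucleus and 10 (5.5%, against 8.3%) in the cytoplasm. With at least 10 counts in each control sample the median was 0.36 over 59 genes, and 17 were higher in the nucleus. Reads could be split between such copies and their parents, so those values are uncertain.

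**Figure D2:**
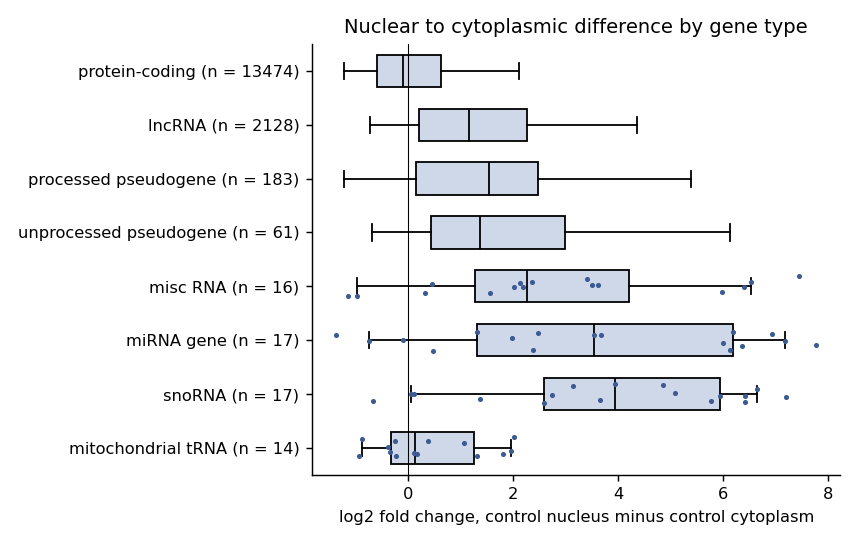
Boxes show the median and quartiles of the log2 difference between control nucleus and control cytoplasm for each gene type, with whiskers at the 5th and 95th percentiles and single genes as points where a type has fewer than 60. The box for protein-coding genes straddles 0 and the box for lncRNA lies above it.

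As a share of all counts from nuclear-encoded genes, transcripts of lncRNA genes made up 1.14% in the cytoplasm (95% Wilson interval 1.132% to 1.144%) and 2.85%, 2.31% and 2.6% in the 3 nuclei. The RNAi cells gave 1.08% and 1.06% in the cytoplasm and 3.57% to 4.13% in the nucleus. The intervals cover counting error only, and with 3 samples against 1 no exact test can reach a p below 0.05. All 3 nuclear values lay above the cytoplasmic one.

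Known nuclear RNAs separated the fractions. XIST (chromosome X, 73040484 to 73072558 in hg19, as for all positions here) stood at 554 CPM in the cytoplasm and 8515, 3748 and 6122 CPM in the nuclei, a log2 difference of 3.47 (SE 0.44, edgeR FDR = 0.000202). MALAT1 (chromosome 11, 65265111 to 65275544) stood at 13.8 CPM against 199, 88.2 and 154.8 CPM, a log2 difference of 3.42 (SE 0.41, edgeR FDR = 0.000146). NEAT1, its neighbour and the scaffold of paraspeckles (65190245 to 65213011), stood at 13.0 CPM against 121.2, 143.5 and 136.2 CPM, a log2 difference of 3.36 (SE 0.18, edgeR FDR = 7.14e-06). For each of these RNAs the lowest nuclear sample lay above 6 times the cytoplasmic value, and the RNAi cells gave log2 differences of 5.68, 4.74 and 4.21.

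Of the 11 nuclear RNA markers in the list 9 were tested, of which 6 were higher in the nucleus and 1 in the cytoplasm, with a median of 1.44. KCNQ1OT1, the antisense RNA that silences an imprinted cluster, stood at 6.38 CPM against 32.8, 22.7 and 28.4 CPM, with a log2 difference of 2.13 (SE 0.23). FTX, a neighbour of XIST, had a log2 difference of 1.58, LINC-PINT of 1.44 and TUG1 of 1.11, and all passed the test. However, FTX lost its call in 3 of 23 other ways of processing. LINC-PINT lost it in 4, the DESeq2 test among them, and TUG1 in 4, among them without nuclear replicate 1. PVT1 (0.93) and OIP5-AS1 (0.02) did not pass the 2-fold threshold. JPX, an activator of XIST, went the other way with 11.8 CPM in the cytoplasm and 4.59 to 6.19 CPM in the nuclei (log2 difference -1.07, SE 0.23, edgeR FDR = 0.00349). That call was lost in 6 of 23 other ways of processing, among them without nuclear replicate 1 and with the GC correction, and in the RNAi cells the difference was 0.29. NORAD, a lncRNA that sequesters Pumilio proteins in the cytoplasm, had a log2 difference of -0.37 and was not called.

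Small nucleolar RNAs are cut from introns of host genes and guide the modification of ribosomal RNA. Most of the entries tested were higher in the nucleus, but at low levels, and those best counted in the cytoplasm were not. Of 17 snoRNA genes tested, 13 (76.5%, against 18.8% of all genes) were higher in the nucleus and none was called in the cytoplasm. Each of the 13 lay within another gene on the same strand. These 13 had 0 to 5 counts in the cytoplasm, 6 of them 0, and 2 to 100 counts in single nuclear libraries. They thus met the minimum of 10 counts in 3 samples without the control cytoplasm. The 3 snoRNA genes with at least 10 counts in each control sample had a median of 0.05, and none was called. Among them, SNORD17 had 76 counts in the cytoplasm and 44, 38 and 35 in the nuclei. SNORA71C, the one with the most counts, had 3 counts in the cytoplasm and 86, 100 and 79 in the nuclei, a ratio of 35.8 after scaling (95% exact counting interval 12.1 to 174.8). SNORD103A and SNORD103B had equal counts in all 4 control libraries and cannot be told apart.

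The hosts did not share this distribution. Of the 13 snoRNA genes, 4 had a host that was also higher in the nucleus and 3 had a host that was higher in the cytoplasm, all 3 of them ribosomal protein genes. RPL12, the host of SNORA65, stood at 874 CPM in the cytoplasm and 299, 408 and 354 CPM in the nuclei (log2 difference -1.31, SE 0.15, edgeR FDR = 0.000123). SNORA65 itself had 5 counts in the cytoplasm and 21, 33 and 22 in the nuclei (log2 difference 2.59, SE 0.65, edgeR FDR = 0.00804). RPS12 had a log2 difference of -1.05, while SNORD101, which lies in it, had 0 counts in the cytoplasm and 25, 20 and 12 in the nuclei. RPS12 lost its call without nuclear replicate 1. In both of these loci the message lay higher in the cytoplasm and the transcript entry for the intronic snoRNA lay higher in the nucleus. The libraries were made from polyadenylated RNA, so the values need not concern the mature snoRNA. Reads at such an entry cannot be told apart from reads of host RNA in which the intron remains.

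The non-coding hosts of snoRNAs were mixed. Of 16 such genes, 7 (43.8%, near the 42.5% of all lncRNA genes) were higher in the nucleus and 1 in the cytoplasm, with a median of 0.35. SNHG12 had a log2 difference of 3.28, GAS5 of 2.53 (7.35 CPM against 31.8, 54.1 and 41.5 CPM) and SNHG1 of 2.26. SNHG16, the most abundant of them, stood at 895 CPM in the cytoplasm and 438 to 439 CPM in the nuclei (log2 difference -1.03, SE 0.10). That value sits at the threshold, and the call was lost in 4 of 23 other ways of processing, among them the GC correction. In the RNAi cells it was -1.33 and passed the test.

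Most precursors of microRNAs that were tested were likewise higher in the nucleus. MIR17HG, the host transcript of the miR-17-92 cluster (chromosome 13, 91999940 to 92049846), had 2 counts in the cytoplasm and 88, 122 and 73 in the nuclei, a ratio of 57.4 (95% exact counting interval 15.7 to 476). In the RNAi cells it stood at 0.109 and 0.311 CPM in the cytoplasm and 8.05 to 9.64 CPM in the nucleus. The entry for the miR-25 hairpin (chromosome 7, 99691183 to 99691266, minus strand), which lies in MCM7, was at 0 counts in the cytoplasm and 32, 29 and 24 in the nuclei, at least 11.5-fold higher in the nucleus when the cytoplasm is put at 3 counts. MIR106B, next to it, was at 0 against 8, 12 and 7 counts, and MCM7 itself, a DNA helicase subunit, had a log2 difference of 0.41. Of 17 microRNA genes tested, 12 (70.6%, against 18.8% of all genes) were higher in the nucleus and none was called in the cytoplasm. The 12 had 0 to 5 counts in the control cytoplasm, 7 of them 0. They thus met the minimum of 10 counts in 3 samples without that library. The 1 gene with at least 10 counts in each control sample, MIR621, had 67 counts in the cytoplasm and 45, 31 and 23 in the nuclei. It was not called (log2 difference -0.75). Libraries of this kind do not capture the mature microRNAs, so the values concern the precursor sequence.

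The mature microRNAs made from those precursors are shown because they fall into few targeting groups. The sequences are from RefSeq (GRCh38.p14), 5′ to 3′, and capitals mark the seed, bases 2 to 8, which pairs with target messages.
hsa-miR-17-5p: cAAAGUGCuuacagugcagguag
hsa-miR-20a-5p: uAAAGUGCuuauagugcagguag
hsa-miR-106b-5p: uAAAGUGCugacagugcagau
hsa-miR-18a-5p: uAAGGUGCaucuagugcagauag
hsa-miR-19a-3p: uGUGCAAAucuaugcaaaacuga
hsa-miR-19b-3p: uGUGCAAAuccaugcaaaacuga
hsa-miR-92a-3p: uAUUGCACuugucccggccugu
hsa-miR-25-3p: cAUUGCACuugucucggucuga
The seed AAAGUGC is shared by 3 of them, and it joins the cluster in MIR17HG to the one in MCM7, as does the seed AUUGCAC of miR-92a-3p and miR-25-3p.

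Among the most abundant messages with a large nuclear excess were several for cytoskeletal and membrane scaffold proteins. They were picked out after their values were seen, as genes with at least 100 CPM in the nucleus and at least 4-fold higher there in both control and RNAi cells, of which there were 17. SPTBN1, a spectrin of the membrane skeleton, stood at 33.4 CPM in the cytoplasm and 684, 391 and 533 CPM in the nuclei, a log2 difference of 4.0 (SE 0.30, edgeR FDR = 1.85e-05). IQGAP1, a scaffold of actin and small GTPases, stood at 13.4 CPM against 226, 158.5 and 190.3 CPM, a log2 difference of 3.83 (SE 0.22, edgeR FDR = 8.33e-06). In both of these the lowest nuclear value lay above 10 times the cytoplasmic one.

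Others of the 17 were DBN1 (drebrin, 60.8 CPM against 545 to 715 CPM), PLEC (plectin, 16.8 against 159 to 167 CPM), AHNAK (36.8 against 163 to 359 CPM), MICAL3 and the laminin chain LAMB2. Their log2 differences were 3.32, 3.28, 2.80, 2.37 and 3.03. The list of 21 cytoskeletal genes, which holds the abundant actins and tubulins, did not go that way. None was higher in the nucleus, 2 (9.5%, near the 8.29% of all genes) were higher in the cytoplasm, and the median was -0.45. ACTB stood at 551 CPM in the cytoplasm and 139.9 to 288 CPM in the nuclei (log2 difference -1.34, SE 0.29, edgeR FDR = 0.004).

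SRRM2, which encodes a large scaffold protein of nuclear speckles, was the most abundant of the 17. It stood at 1800.0 CPM in the cytoplasm and 8672, 5905 and 7511 CPM in the nuclei, a log2 difference of 2.03 (SE 0.23, edgeR FDR = 0.000114), and at 2.02 in the RNAi cells. The chromatin regulator KMT2A, a histone methyltransferase, stood at 33.1 CPM against 167, 104 and 137 CPM (log2 difference 2.04, SE 0.25). DGCR8, the partner of Drosha in microRNA processing, stood at 33.8 CPM against 141, 184 and 152 CPM (log2 difference 2.24, SE 0.18), while the other 12 genes of the microRNA machinery list held 1 gene called higher in the cytoplasm (PRKRA, -1.14, a call lost with the GC correction) and a list median of -0.14.

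**Figure D3:**
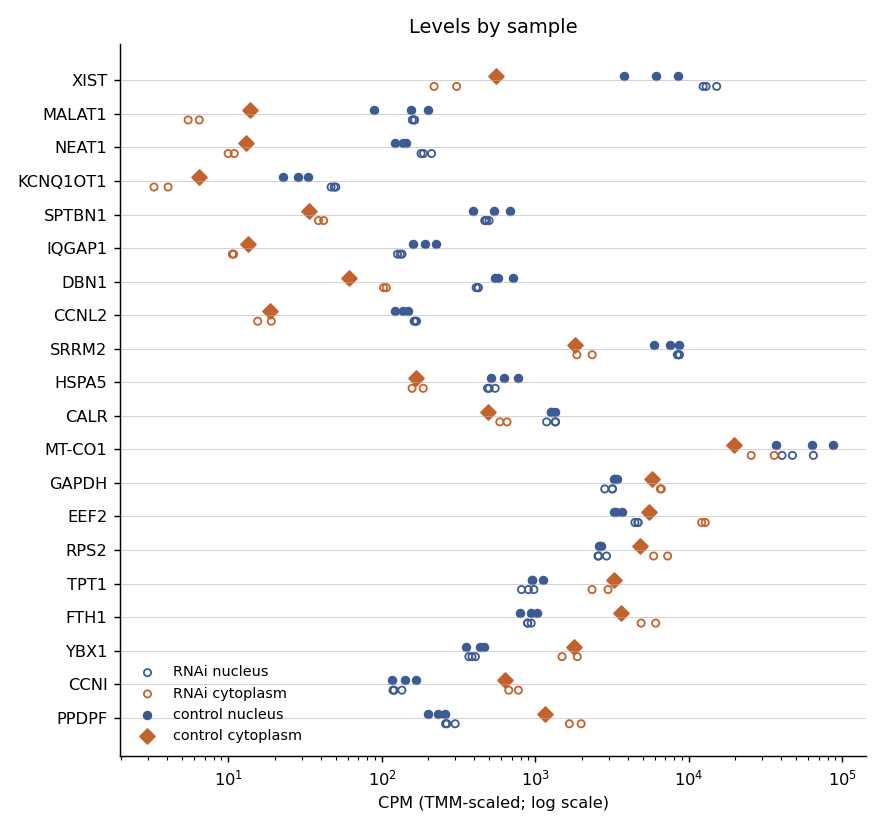
Levels in CPM on a log axis for 20 RNAs in every sample: filled circles for the 3 control nuclei, the diamond for the control cytoplasm, open circles for the RNAi nuclei and cytoplasm. From XIST to MT-CO1 all nuclear values lie above all cytoplasmic ones in both kinds of cells, and from GAPDH to PPDPF they lie below.

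Kinases of the CLK family phosphorylate splicing factors, and they and a set of other genes are known for polyadenylated transcripts in which particular introns remain. Of 20 genes in this list 11 (55.0%, against 18.8% of all genes) were higher in the nucleus and none was called in the cytoplasm. The median log2 difference was 1.20, and all 11 were also called in the RNAi cells. CCNL2, a cyclin of splicing regulation, stood at 18.6 CPM in the cytoplasm and 121, 147 and 137 CPM in the nuclei (log2 difference 2.86, SE 0.18, edgeR FDR = 1.06e-05). LUC7L3 had a log2 difference of 2.52, CLK4 of 2.31, CLK1 of 1.5, OGT of 1.40, CLK2 of 1.29 and DDX17 of 1.18. CLK3 (0.73), MAT2A (0.23) and DDX5 (-0.54) were not called. The call for DDX17 was lost without nuclear replicate 1.

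Transcripts of the same gene were compared next, since the deposited values are per transcript. Among transcripts annotated in protein-coding genes, those with a retained intron had a median log2 difference of 2.66 over 7446 transcripts, and 2943 of them (39.5%) were higher in the nucleus and 135 (1.8%) in the cytoplasm. Over all transcripts tested, 14.7% were called on the nuclear side and 5.04% on the cytoplasmic side. Transcripts were kept at 10 counts in at least 3 of the 9 samples, which nuclear samples alone could supply. Those with few or no counts in the control cytoplasm are therefore part of these medians and shares. The 26892 coding transcripts had a median of -0.21, with 1912 (7.1%) and 1758 (6.5%) called. Transcripts marked for nonsense-mediated decay, the pathway that destroys messages with early stop codons in the cytoplasm, had a median of 0.17 over 3402 transcripts.

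In 3877 genes the most abundant retained-intron transcript could be set beside the most abundant coding transcript of the same gene. The retained-intron transcript had the larger nuclear difference in 3043 of them (78.5%), by a median of 2.13 on the log2 scale. For transcripts marked for decay the share was 55.9% of 2361 genes, with a median difference of 0.20. The same filter applied here, so a retained-intron transcript could enter on nuclear counts alone, and its part in these shares was not tested. The estimates rest on the division of reads among overlapping transcripts, so single transcripts are less certain than genes.

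OGT, the enzyme that adds O-linked N-acetylglucosamine to proteins, shows the contrast. Its retained-intron transcript stood at 9.23 CPM in the cytoplasm and 128.4, 79.6 and 106.4 CPM in the nuclei (log2 difference 3.50, SE 0.31, edgeR FDR = 0.00137). Its main coding transcript stood at 65.8 CPM against 97.8, 85.9 and 99.0 CPM (log2 difference 0.52, SE 0.17, edgeR FDR = 0.0709). The retained-intron transcript of CCNL2 stood at 0.879 CPM against 55.3, 64.0 and 60.7 CPM, and that of CLK3 was at 0 against 8.1, 7.45 and 8.46 CPM, whereas the coding transcript of CLK3 stood at 19.2 CPM against 13.3, 10.3 and 15.3 CPM. In DDX39B, an RNA helicase of the TREX export complex, the retained-intron transcript stood at 48.7 CPM against 207.5, 152.2 and 216.5 CPM and the most abundant coding transcript at 30.4 CPM against 33.2, 23.2 and 18.5 CPM. For the spectrin gene SPTBN1 the coding transcript itself was higher in the nucleus, with a log2 difference of 4.0.

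**Figure D4:**
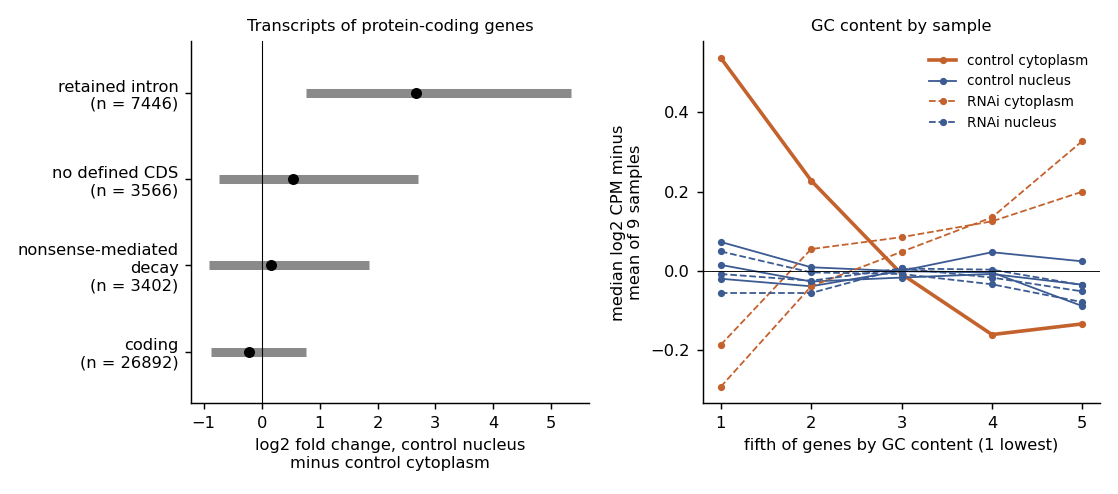
Left, median (point) and quartiles (bar) of the log2 difference between control nucleus and control cytoplasm for transcripts of protein-coding genes by annotation, with retained-intron transcripts at a median of 2.66. Right, median log2 CPM relative to the mean of all 9 samples for 5 groups of genes of increasing GC content, 1 line per sample, where the control cytoplasm falls from 0.538 to -0.134 and the RNAi cytoplasm rises.

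Summed over all such genes the contrast was smaller. Retained-intron transcripts took 8.05% of the TPM of nuclear-encoded genes in the cytoplasm and 10.2%, 11% and 10.7% in the nuclei. Over all genes, mitochondrial ones included, the shares were 5.96% against 5.4%, 7.68% and 6.35%, and the cytoplasmic value lay within the nuclear range. Coding transcripts took 78.6% of nuclear-encoded TPM in the cytoplasm and 72.8% to 73.3% in the nuclei.

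Messages for proteins of the endoplasmic reticulum and the secretory path were higher in the nuclear fraction. Of 41 genes for translocation, folding and secretion, 16 (39.0%, against 18.8% of all genes) were higher in the nucleus and none was called in the cytoplasm. The median was 0.58, and the summed level of the 41 was 6224 CPM in the cytoplasm against 12271, 10416 and 11193 CPM in the nuclei. HSPA5, the main chaperone of the endoplasmic reticulum, stood at 166 CPM against 767, 516 and 620 CPM (log2 difference 1.94, SE 0.22, edgeR FDR = 0.000111). CALR, a lectin chaperone, stood at 489 CPM against 1337, 1258 and 1264 CPM (log2 difference 1.40, SE 0.14, edgeR FDR = 6.34e-05). PDIA3 (1.61), SEC61A1, a subunit of the translocation channel (1.09), and CANX (1.06) also passed the test. However, SEC61A1 lost its call in 6 of 23 other ways of processing, among them without nuclear replicate 1 and with the GC correction. CANX lost it in 5 and PDIA3 in 3. TMED2, the lowest of the list, had a log2 difference of -0.95, below the 2-fold threshold. Of the 16 genes 8 were also called in the RNAi cells, and 12 held their call with the GC correction.

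Solute carriers, the membrane transporters, had the same median of 0.58. Of 255 tested, 69 (27.1%, against 18.8% of all genes) were higher in the nucleus and 10 (3.9%, against 8.29%) in the cytoplasm. Only 35 of the 69 were also called in the RNAi cells, whose median was 0.30. With the GC correction 57 of the 69 held their call. SLC7A5, the most abundant, stood at 726 CPM against 1376, 1061 and 1190.2 CPM (log2 difference 0.74), and its difference in the RNAi cells was -0.26. The cholesterol list did not stand out, with 4 of 23 genes higher in the nucleus (17.4%, against 18.8% of all genes and 14.2% of protein-coding genes). Of the 4, 2 were also called in the RNAi cells, and the medians were 0.15 in control and -0.03 in RNAi cells.

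Mitochondrially encoded RNA took 15.1% of the counts in the cytoplasm and 30.7%, 18.5% and 26.1% in the nuclei. MT-CO1, a subunit of cytochrome oxidase, stood at 19636 CPM in the cytoplasm and 86105, 36693 and 63672 CPM in the nuclei (log2 difference 1.66, SE 0.45, edgeR FDR = 0.0113). Of 13 mitochondrially encoded messages, 4 (30.8%, against 18.8% of all genes) were higher in the nucleus and none was called in the cytoplasm, with a median of 0.42. The nuclear replicates differed from each other by more than the smallest of them differed from the cytoplasm, and none of the 4 calls was repeated in the RNAi cells. The ribosomal RNAs MT-RNR2 and MT-RNR1 had log2 differences of 0.15 and 0.24 and were not called. The part that mitochondria or endoplasmic reticulum in the nuclear fraction took in the values above was not tested.

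Lists of regulated messages were called at about the rate of all genes. Of 31 immediate early and AP-1 genes, 6 (19.4%) were higher in the nucleus and 1 in the cytoplasm. The nuclear share was 18.8% over all genes tested and 14.2% over protein-coding genes. Of the 6, 2 were also called in the RNAi cells, where the list median was -0.18 against 0.19 in control cells. EGR1, a transcription factor induced within minutes of stimulation, stood at 97.2 CPM in the cytoplasm and 181, 513 and 379.7 CPM in the nuclei (log2 difference 1.88, SE 0.46, edgeR FDR = 0.00704). FOS stood at 16.7 CPM against 28.2, 68.5 and 46.7 CPM (log2 difference 1.52, SE 0.42, edgeR FDR = 0.0136). Nuclear replicate 1 was the lowest of the nuclei for both genes. MYC had a log2 difference of -0.24 and JUN of 0.82, and neither was called.

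Of 18 targets of the integrated stress response, 4 (22.2%, against 18.8% of all genes and 14.2% of protein-coding genes) were higher in the nucleus. Of the 4, 2 were also called in the RNAi cells, where the median was -0.39 against 0.27 in control cells. DDIT3, a transcription factor of that response, stood at 1.58 CPM against 3.84 to 6.05 CPM (log2 difference 1.59, SE 0.36). CHAC1, a glutathione-degrading enzyme, had 3 counts in the cytoplasm and 32, 19 and 30 in the nuclei, a ratio of 10.9 (95% exact counting interval 3.62 to 54.2). ATF4, the factor that drives the set, stood at 2594 CPM against 1653 to 1728 CPM (log2 difference -0.62). Zinc finger genes with ZNF symbols, 411 in number, had a median of 0.12, and in the RNAi cells the median was 0.62. Of these, 51 (12.4%) were higher in the nucleus, near the 14.2% of protein-coding genes, and 16 (3.9%, against 9.6%) were higher in the cytoplasm.

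**Figure D5:**
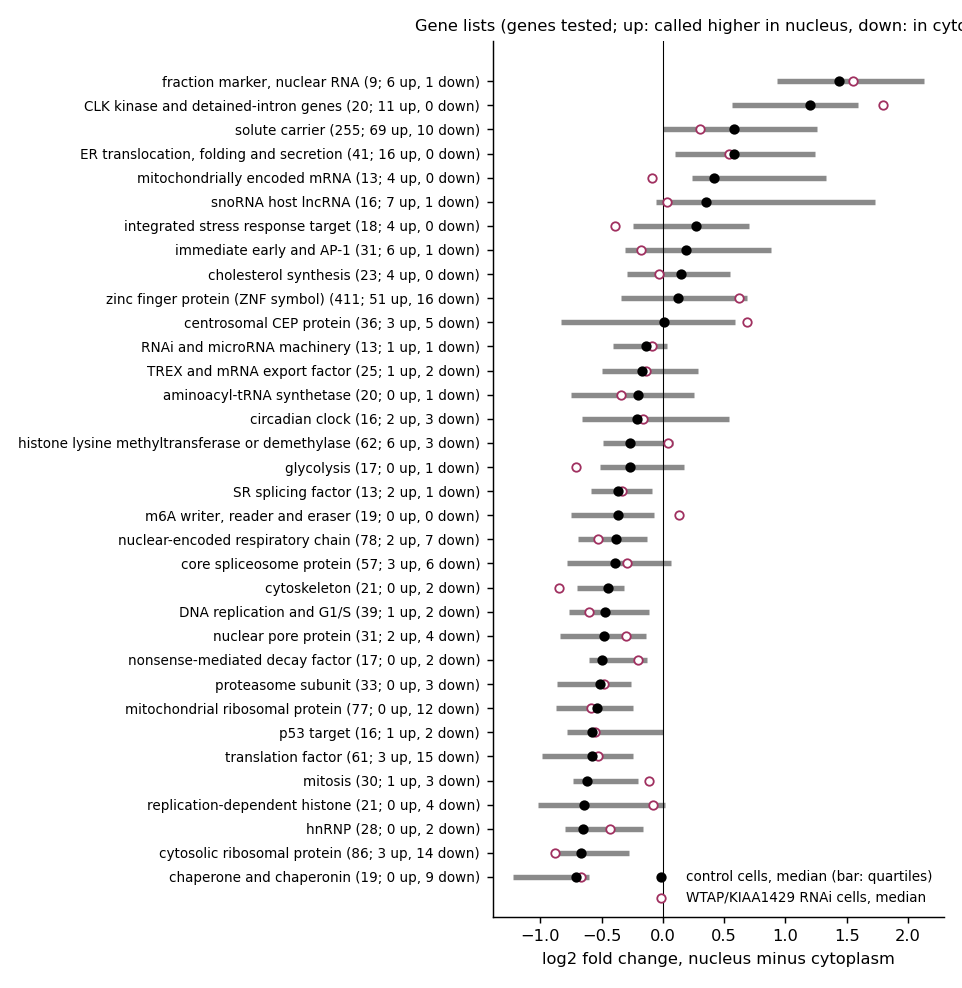
For each gene list the black point is the median log2 difference between nucleus and cytoplasm in control cells, the bar its quartiles, and the open circle the median in RNAi cells; numbers give the genes tested and those called on either side. Nuclear RNA markers and detained-intron genes lie at the top, with medians of 1.44 and 1.20, and chaperones and cytosolic ribosomal proteins at the bottom, with -0.71 and -0.67.

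On the cytoplasmic side the differences were moderate and widely shared within the translation machinery. Cytosolic ribosomal protein genes had a median of -0.67, and of 86 tested 14 (16.3%, against 8.29% of all genes) were higher in the cytoplasm and 3 (3.5%) in the nucleus. Their summed level was 65615 CPM in the cytoplasm against 39363, 45006 and 42113 CPM in the nuclei. RPS2, the most abundant, stood at 4822 CPM against 2608, 2635 and 2678 CPM, a log2 difference of -0.87 (SE 0.14) that did not reach 2-fold. RPL17, the lowest, stood at 543 CPM against 145, 174 and 165 CPM (log2 difference -1.75, SE 0.14, edgeR FDR = 1.99e-05). RPS7 (2.01), on the nuclear side, stood at only 2.25 CPM in the cytoplasm. Genes of this family have many near-identical copies, so their counts are uncertain. With the GC correction 23 genes were higher in the cytoplasm and 2 in the nucleus.

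Among 61 translation factors 15 (24.6%, against 8.29% of all genes) were higher in the cytoplasm and 3 (4.9%) in the nucleus, with a median of -0.58. EIF1, which selects the start codon, stood at 2453 CPM against 892, 614 and 761 CPM (log2 difference -1.70, SE 0.18, edgeR FDR = 7.07e-05). EEF2, the translocation factor, stood at 5487 CPM against 3687, 3235 and 3359.8 CPM (-0.68), and in the RNAi cells its difference was -1.44. Mitochondrial ribosomal proteins had a median of -0.54, with 12 of 77 (15.6%) higher in the cytoplasm and none called in the nucleus. Only 1 of the 12 was also called in the RNAi cells, and 7 held their call with the GC correction. The respiratory chain (78 genes, median -0.38), the proteasome (33 genes, -0.51) and glycolysis (17 genes, -0.27) held 7, 3 and 1 genes higher in the cytoplasm and 2, 0 and 0 higher in the nucleus, and the cytoplasmic shares of 9.0%, 9.1% and 5.9% were near the 8.29% of all genes. COX6A1, a subunit of cytochrome oxidase, was one of the exceptions with 215 CPM in the cytoplasm and 732, 729.7 and 772 CPM in the nuclei. With the GC correction, 5 of the 7 cytoplasmic calls of the respiratory chain held. Of the 3 of the proteasome 1 held, and the 1 of glycolysis was lost.

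Chaperones and chaperonins had the lowest median of all lists, -0.71, and 9 of 19 (47.4%, against 8.29% of all genes) were higher in the cytoplasm. None of the 9 calls was repeated in the RNAi cells, where the median was -0.67, and 5 of them held with the GC correction. HSP90AA1, the inducible cytosolic HSP90, stood at 219 CPM in the control cytoplasm and 63.2, 85.0 and 64.2 CPM in the nuclei (log2 difference -1.63, SE 0.17, edgeR FDR = 7.5e-05), whereas in the RNAi cells it stood at 53.7 and 68.1 CPM in the cytoplasm and 66.0 to 69.7 CPM in the nucleus. The difference between the 2 kinds of cells was 1.79 on the log2 scale and passed the test of the difference.

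The abundant messages that were highest in the cytoplasm in both kinds of cells numbered 27, taken after their values were seen as those with at least 100 CPM in the cytoplasm, a log2 difference of -1.5 or below in control cells and a call in RNAi cells. PPDPF (chromosome 20, 62152118 to 62153559) stood at 1145 CPM in the cytoplasm and 199.8, 256.5 and 231 CPM in the nuclei, a log2 difference of -2.32 (SE 0.15, edgeR FDR = 1.06e-05). CCNI, a cyclin expressed throughout the cycle, stood at 637 CPM against 166, 116 and 142 CPM, a log2 difference of -2.17 (SE 0.17, edgeR FDR = 1.91e-05). YBX1, a cold-shock domain protein that packages messages, stood at 1775 CPM against 353, 463 and 434 CPM, a log2 difference of -2.09 (SE 0.16, edgeR FDR = 1.85e-05). In these genes the cytoplasmic value was more than 3 times the highest nuclear one, and the RNAi cells gave -2.73, -2.54 and -2.12.

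FTH1 and TPT1, whose translation is controlled in the cytoplasm, belonged to the same group. FTH1, the heavy chain of ferritin, stood at 3592 CPM against 1025, 789 and 937 CPM (log2 difference -1.97, SE 0.16), and TPT1 stood at 3259.9 CPM against 1116, 945 and 948 CPM (-1.70, SE 0.16). PTMA (-1.69), NRAS (-1.71), MAP1LC3B, an autophagy protein (-1.78), and PCBP2, an RNA-binding protein (-1.52), were others. GAPDH stood at 5745 CPM against 3247, 3411.5 and 3276 CPM, a log2 difference of -0.79 that did not reach the threshold.

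Genes of RNA processing and export lay near the middle or somewhat on the cytoplasmic side. In the m6A list of 19 writers, readers and erasers none was called in either direction by edgeR or by DESeq2, while 1 had an unadjusted edgeR p under 0.05 on the nuclear side and 9 on the cytoplasmic side, and the median was -0.37. WTAP stood at 37.4 CPM in the cytoplasm and 24.1, 27.5 and 23.0 CPM in the nuclei (log2 difference -0.59), and ALKBH5, an m6A eraser, at 565.5 CPM against 322 to 367 CPM (-0.74). The hnRNP list (28 genes, median -0.65) and the core spliceosome list (57 genes, median -0.39) held 2 and 6 genes higher in the cytoplasm and 0 and 3 higher in the nucleus. The cytoplasmic shares of 7.1% and 10.5% were near the 8.29% of all genes. Of 13 SR splicing factors, SRSF11 (27.6 CPM against 54.4 to 60 CPM, log2 difference 1.06) and SRSF5 (1.05) were higher in the nucleus and SRSF10 (-1.22) in the cytoplasm. These shares of 15.4% and 7.7% were near the 18.8% and 8.29% of all genes. The calls of SRSF11 and SRSF5 were each lost in 5 of 23 other ways of processing, SRSF5 without nuclear replicate 2 and SRSF11 with the GC correction among them.

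Of 25 TREX and export genes 1 (4.0%) was higher in the nucleus and 2 (8.0%) in the cytoplasm, with a median of -0.17. Over all genes the shares were 18.8% and 8.29%. DDX39B stood at 90.5 CPM in the cytoplasm and 311, 276 and 323 CPM in the nuclei (log2 difference 1.74, SE 0.15, edgeR FDR = 3.31e-05), while THOC7, another subunit of the complex, stood at 32.9 CPM against 8.77, 8.3 and 9.54 CPM (-1.89, SE 0.22, edgeR FDR = 0.000128). Nuclear pore genes were similarly split, with 2 of 31 (6.5%) higher in the nucleus and 4 (12.9%) in the cytoplasm. NUP210, a membrane-spanning pore protein, stood at 309 CPM against 1734, 988 and 1315 CPM (log2 difference 2.12, SE 0.28, edgeR FDR = 0.000254). The 6 genes that the study followed by RT-qPCR (PTPN12, DICER1, TAF7, GSTP1, SYMPK and MC1R) had log2 differences of -0.68, -0.65, -0.38, -0.05, 0.39 and 0.81 in the control cells, and none reached 2-fold.

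The largest differences of all, among genes with a mean of at least 5 CPM in one fraction, came mostly from genes with few or no counts in the cytoplasm. MIR663AHG, a microRNA host transcript, was at 0 in the cytoplasm and at 9.25, 11 and 9.54 CPM in the nuclei, at least 54.4-fold higher in the nucleus, and the RNAi cells gave 0 and 0.109 CPM in the cytoplasm against 9.21 to 15.5 CPM in the nucleus. PER2, a repressor of the circadian clock, was at 0 against 11, 10.2 and 11.5 CPM (at least 59.7-fold higher), but in the RNAi cells it stood at 14.2 and 16.6 CPM in the cytoplasm and 14.6 to 20.3 CPM in the nucleus. CPNE3, a calcium-dependent membrane-binding protein, was likewise at 0 against 12.1, 18.1 and 13.1 CPM in control cells and at 7.46 and 21.6 CPM against 5.51 to 13.0 CPM in RNAi cells. PER2 and CPNE3 were not called in the RNAi cells, and an estimate of 0 from a transcript-level method can be a failed assignment of reads. GLB1L2 had 4 counts in the cytoplasm and a log2 difference of 4.68, with 5.62 in the RNAi cells.

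On the cytoplasmic side the 12 largest differences belonged to genes at 5.46 to 110.6 CPM in the cytoplasm. PPM1G, a protein phosphatase and the most abundant of them, stood at 110.6 CPM in the cytoplasm and 20.3, 11.1 and 26.6 CPM in the nuclei (log2 difference -2.53, SE 0.43, edgeR FDR = 0.001), and its difference in the RNAi cells was -0.76 and not called. CWC15, a splicing factor, stood at 5.46 CPM in the cytoplasm and 0.137, 0 and 0 CPM in the nuclei, and ITM2B, a membrane protein, at 22 CPM against 0, 1.16 and 1.68 CPM. ITM2B varied among the RNAi nuclei from 0.092 to 22.3 CPM. DEK, a chromatin protein, stood at 39.1 CPM against 8.02, 5.58 and 5.83 CPM (log2 difference -2.59, SE 0.24, edgeR FDR = 3.9e-05), whereas in the RNAi cells it was 0.75 with the higher level in the nucleus. CCNG1, a target of p53, held its direction, with 49.7 CPM against 11.7, 8.98 and 11 CPM (-2.23) in control cells and -1.75 in RNAi cells. IARS2, an isoleucyl-tRNA synthetase of mitochondria, stood at 81.6 CPM against 0.548, 31.2 and 0.883 CPM, a difference of -2.87 whose call was lost in 11 of 21 other ways of processing, among them without nuclear replicate 3 and without each of the 5 RNAi samples in turn.

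Across 13461 nuclear-encoded protein-coding genes the differences followed base composition and abundance more than length. The tertile of genes with the least GC had a median log2 difference of -0.44, the middle tertile -0.03 and the tertile with the most GC 0.13, and 19.3%, 6.7% and 3.0% of them were higher in the cytoplasm. Spearman's rho across genes was 0.279 for GC content, -0.253 for mean CPM, 0.025 for transcript length, -0.034 for the length of the last exon and -0.02 for the number of exons, given as a description since genes are not independent and all values share the 1 cytoplasmic library. In the RNAi cells the relation with GC content had the opposite sign, with medians of 0.12, -0.11 and -0.28 and a rho of -0.18, while that with mean CPM kept its sign at -0.43. Genes at low levels could pass the count minimum on nuclear samples alone, and 841 of the 13461 had fewer than 10 counts in the control cytoplasm. The part of that filter in the relation with mean CPM was not tested. Genes called higher in the cytoplasm had a median GC content of 43.1%, and those among them called also in the RNAi cells 47.8%, against 51.7% for genes not called. The GC shift of the cytoplasmic library moved with the cytoplasmic calls, and its part in them was not tested.

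Nuclear calls recurred in the RNAi cells more often than cytoplasmic ones. There 3815 genes (23.6%) were higher in the nucleus and 1033 (6.38%) in the cytoplasm. Of the 3049 genes called higher in the control nucleus, 2998 (98.3%) had the same direction in the RNAi cells and 2277 (74.7%) were called. Of the 1341 called higher in the control cytoplasm, 1082 (80.7%) had the same direction, 381 (28.4%) were called and 43 were called the other way. Among genes with at least 10 counts in each control sample, 275 were at least 4-fold higher in the nucleus of both kinds of cells, 146 of them protein-coding and 109 lncRNA. Of the 49 genes at least 4-fold higher in the control cytoplasm, 18 were called in the RNAi cells.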

How the data were processed

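RNA from nuclear and cytoplasmic fractions of HEK293 cells was sequenced in 9 samples, of which the 4 control siRNA samples are the subject here. Per the labels, libraries were made with the Lexogen SENSE kit from polyadenylated RNA, and the submitters' processing notes name cutadapt, Salmon and hg19 without versions used here. The deposited files hold, for each of 215170 transcripts, the estimated counts and the TPM (a length-scaled share of transcripts) that the authors obtained with Salmon. The strand setting is not given in the sources used here. The authors summed transcripts per gene and used edgeR.

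Estimated counts were summed per gene through the GENCODE annotation on hg19 (183122 transcripts, 85.1%, matched 56349 genes; 83.07% of the counts in the cytoplasm and 86.75% to 87.49% in the nuclei) and rounded to whole numbers. Genes with at least 10 counts in at least 3 samples were kept, 16181 in all. The quasi-likelihood test of edgeR 4.0.16 (R 4.3.3, TMM scaling, 4 groups, no block, 5 residual degrees of freedom) compared control nucleus with control cytoplasm. A gene was called at a log2 difference of at least 1 and a Benjamini-Hochberg FDR under 0.05, and described as large at 2 or more. Standard errors were taken as the log2 difference divided by the square root of F. In the cytoplasm 3 counts, used as the floor for genes at 0, equalled 0.182 CPM. The same model was fitted to 44726 transcripts. Alternatives used DESeq2 1.42.0 and limma 3.58.1, and summaries Python 3.11.15 with pandas 2.3.3 and scipy 1.17.1. On simulated counts with 200 genes changed 4-fold, the test for this comparison, run on 15645 genes, recovered 99.5% of them. Of its calls, 3.9% were unchanged genes. The simulation gave every gene the same dispersion of 0.02, changed only genes above a minimum mean level and held no GC shift. It therefore does not measure recovery for genes with few counts or for a library whose GC composition stands apart.

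Gene lists (38) and the choice of samples were made with earlier results of these data known. Named genes were the fraction markers and RT-qPCR genes, the 12 largest differences in each direction with a mean of at least 5 CPM in a control fraction, a cytoplasmic value outside the nuclear range and a sign that held in every fit without 1 sample, and the highest, the lowest and the most abundant member of each list. Further genes were named after their values were seen: those abundant in both kinds of cells, small RNA genes with their hosts, and members that illustrate a list. Lists and gene types were described by counts and medians without a test. Other cytoplasmic control samples were not analysed here. Some items are not reported here.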

Additional observations from a re-analysis of the deposited data

Results flagged for a closer look

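The difference between nucleus and cytoplasm was itself different in control and RNAi cells for 28 genes that were named and called in the control cells, XIST not counted, by the edgeR test of the interaction (FDR under 0.05). Values are the log2 difference in RNAi cells minus that in control cells. A positive value means a larger ratio of nuclear to cytoplasmic level in the RNAi cells, and either fraction can bring it about. CEP55, for example, stood at 8.36 to 9.18 CPM in the control nuclei and 6.94 to 10.6 CPM in the RNAi nuclei. In the cytoplasm it stood at 22.6 CPM in control cells and 8.63 and 9.38 CPM in RNAi cells. Among non-coding RNAs and genes of splicing, NEAT1 differed by 0.85, KCNQ1OT1 by 1.58, FTX by 1.99, JPX by 1.36, CLK1 by 1.19, LUC7L3 by 2.12 and SRSF11 by 1.85. Drebrin (DBN1) gave -1.32, plectin (PLEC) -0.91 and the dynein heavy chain DYNC1H1 -0.85.

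Genes of the cell cycle, centrosome and chromosomes gave 1.7 for CCNE2, 2.17 for CENPF, 2.47 for CEP152, 1.36 for CEP55, 2.18 for CKAP2 and 3.34 for DEK, while the DNA ligase LIG1 gave -1.02. The chaperones HSP90AA1 and HSPH1 gave 1.79 and 2.01, the proteasome subunit PSMD14 1.14, RPL17 0.68, the carrier SLC25A46 1.41, QSER1 2.95 and URI1 4.23. The most negative values belonged to genes with 5 or fewer counts in the control cytoplasm: CPNE3 (-11.36), PER2 (-9.92), ENSG00000205236 (-8.47) and FAM203B (-4.87). These fitted values are no bounds, since they depend on how a count near 0 is treated. All 28 rest on the 1 control cytoplasmic library, whose GC composition stood apart.

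A transcript outside the gene table carried a large share of the counts. It took 6.06% of the estimated counts in the control cytoplasm, 1.83% to 2.26% in the control nuclei, and 4.2% and 4.83% in the RNAi cytoplasm. It matched no gene of the annotation used and was not tested.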

How the results depend on the processing

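The counts of genes higher in the control nucleus and cytoplasm, 3049 and 1341, moved by more than 1.5 times under few choices. With at least 10 counts in every sample they were 1751 and 882, with limma on log2(TPM + 1) 1937 and 839, and with a log2 difference of at least 2 they were 1494 and 49; the last asks for a larger change by construction, and the first tests fewer genes. Without any filter, 3290 and 1937 were called. The nuclear mean share of retained-intron transcripts was 6.48% of TPM, 4.99% of estimated counts and, after leaving out mitochondrially encoded genes, 10.6% of TPM. Leaving out 1 sample at a time gave 2796 to 3124 and 1310 to 1483 genes. DESeq2 called 2429 and 1221, other TMM and library size scalings 2981 to 3279 and 1076 to 1388, and control samples alone 2674 and 1105. Among the scalings and corrections, only that for GC content moved the median of all genes by over 0.1, from 0.04 to -0.08. Nuclear replicate 2 against cytoplasmic replicate 2 alone gave values without a test. The handling of unmatched transcripts, of mitochondrial genes, GC content and nuclear-encoded shares were alternatives chosen after seeing the data.

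With the replicate number as a block, 2778 and 1515 genes were called. The main fit did not take the numbers to pair the samples. The deviations of same-numbered control and RNAi nuclei correlated at 0.185, 0.11 and 0.042, each the highest for its control nucleus. RNAi nucleus 3, however, correlated more with control nucleus 2 (0.056). Whether equal numbers mark samples prepared together was not tested.

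Of 155 named genes that were called, 114 held their call in every alternative and 41 lost it in at least 1, and none reversed. Cytoplasmic differences rest on 1 library, and 1204 of the nuclear calls on fewer than 10 counts there.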
